A study of Mus musculus with 2 samples.

Results

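The transcript models described here are spliced short forms of mouse adrenal RNA. Each is a model of 2 or more exons that the authors' long-read annotation labels an incomplete splice match, meaning that its introns follow one another as in a longer model while introns at 1 or both ends are missing. Members were selected on their read count, with at least 5 reads so labelled in either library, and models of the 2 libraries with the same introns were joined into 1 intron chain. The rule gave 2204 members of 35268 multi-exon incomplete splice match chains, among 110176 spliced chains of every class. The labels give a single group: long-read RNA-seq of adrenal glands from female B6CASTF1/J mice aged 10 days, F1 hybrids of the B6 and Cast strains with no treatment or engineered allele named, as biological replicates 1 and 2. No promoter, Cre or cell line is involved. The sample description gives animal number 03 for replicate 1 and 04 for replicate 2, whereas the library description gives 03 for both, so that values of the 2 libraries measure a spread that may be partly technical.

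Long reads are copied from the poly(A) tail toward the cap of an mRNA. A molecule that was cut, or a copy that ended early, then yields a read with the 3' exons and without the 5' exons, while a true transcript that starts downstream, at a second promoter, yields the same set of introns. Polyadenylation within an intron, by contrast, gives an mRNA that keeps the 5' exons and lacks the last ones. A short form that still holds the start and stop codons can carry the whole protein, and one that starts inside the reading frame cannot encode the annotated protein from its own first codon. The adrenal gland joins a steroid-making cortex to a medulla that makes and stores catecholamines, and dissected glands can carry neighbouring fat and other tissue.

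The libraries held 606677 reads on 103386 models in replicate 1 and 788654 reads on 100292 models in replicate 2, and 593058 and 772037 reads remained outside the spike-in sequences. The 6 cortical markers (Cyp11a1, Cyp11b1, Cyp21a1, Star, Hsd3b1 and Nr5a1) lay between 219 and 8655 CPM (reads scaled to the library total) and the 5 medullary markers between 139 and 1947. Markers of other tissues were also present and differed between the libraries: Ucp1 of brown fat had 2192 and 3018 CPM, Alb of liver 3386 and 455, and Acta1 of skeletal muscle 4908 and 1263. The kidney marker Slc34a1 went from no read in replicate 1 (0) to 200 reads in replicate 2. In bulk tissue, fewer cells of a type and less RNA per cell cannot be told apart. The share of each member's reads that came from such tissue was not tested.

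A set of 10 well-read short forms that begin inside a reading frame is shown first by sequence, because the first base of the deposited model sets how much of the reading frame the model holds. Each line gives 60 coding bases of the GENCODE M21 model, 5' to 3': 30 bases that the short form lacks in lower case, then its first 30 bases in capitals. The interval is that of the capitals on mm10.
Fabp4 keeping 1 intron (chr3:10205313-10205342, minus strand): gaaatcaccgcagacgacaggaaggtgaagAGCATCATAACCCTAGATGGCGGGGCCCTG
Fabp4 keeping 2 introns (chr3:10206093-10206122, minus strand): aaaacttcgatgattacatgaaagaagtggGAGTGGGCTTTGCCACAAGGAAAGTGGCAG
Atp5b keeping 1 intron (chr10:128089041-128089070, plus strand): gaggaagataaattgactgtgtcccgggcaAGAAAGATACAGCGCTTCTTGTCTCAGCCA
Ndufa4 keeping 1 intron (chr6:11905233-11905262, minus strand): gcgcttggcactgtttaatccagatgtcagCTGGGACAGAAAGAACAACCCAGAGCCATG
Ndufs7 keeping 1 intron (chr10:80255924-80255953, plus strand): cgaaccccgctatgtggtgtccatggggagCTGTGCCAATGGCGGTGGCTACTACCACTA
Ssbp1 keeping 1 intron (chr6:40477923-40477952, plus strand): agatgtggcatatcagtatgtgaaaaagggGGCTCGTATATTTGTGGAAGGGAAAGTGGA
Cd36 keeping 1 intron (chr5:17785857-17785886, minus strand): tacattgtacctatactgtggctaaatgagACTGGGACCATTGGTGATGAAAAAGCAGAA
Chgb keeping 1 intron (chr2:132792330-132792359, plus strand): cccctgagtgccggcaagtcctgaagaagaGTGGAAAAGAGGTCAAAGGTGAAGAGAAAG
Cyp11a1 keeping 5 introns (chr9:58019293-58019322, plus strand): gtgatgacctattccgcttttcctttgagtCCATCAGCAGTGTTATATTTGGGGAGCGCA
Alb keeping 7 introns (chr5:90468481-90468510, plus strand): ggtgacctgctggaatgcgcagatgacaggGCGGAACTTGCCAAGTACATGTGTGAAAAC
All 10 of these starts lie exactly on an annotated exon edge of their gene, and whether the reads began there was not tested, so the codons given below are those of the models. Fabp4, the fatty acid carrier of adipocytes, has 132 codons, of which the form with 2 introns holds whole codons from codon 26 and the form with 1 intron from codon 83. The first in-frame ATG of those forms is codon 36, with 97 codons from there to the end, and codon 120, with 13. The Atp5b form, from the gene of the catalytic beta subunit of ATP synthase, enters at codon 458 of 529 and has its first in-frame ATG at codon 478. Forms of Ndufa4 and Ndufs7, genes of the respiratory chain, enter at codon 45 of 82 and codon 164 of 224 and hold no in-frame ATG. The Chgb form, from the gene of the chromaffin granule protein chromogranin B, enters at codon 65 of 677 and keeps 505 codons from its first in-frame ATG, and the Cyp11a1 form, from the gene of the enzyme that opens steroid synthesis, enters at codon 207 of 526 and keeps 311.

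Most members lacked introns at the 5' side. When each chain was placed as an unbroken run in all Known models of its gene, 2002 members (90.8%, exact 95% binomial interval 89.6 to 92.0) lacked introns at the 5' side, 93 (4.22%) at the 3' side and 6 at both sides. A further 10 lacked 5' introns against one Known model and 3' introns against another, and 93 were contained in no Known model of their gene. The subtype column deposited by the authors matched this class for 2095 of 2111 members, but for only 1 of the 6 lacking introns at both sides. Members of the 5' class held 27776 of the 29411 member reads in replicate 1 and 36124 of 38335 in replicate 2.

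Read counts were concentrated in a few genes. Members lay in 1252 genes, 905 of which had 1 member and 72 had 5 or more, and the median member had 12 reads over both libraries. The 10 members with most reads held 29.9% of member reads, and the 61 members with at least 100 reads held 46.7%. Member reads made up 6.23% of the 472426 spliced reads of replicate 1 and 5.93% of the 646682 of replicate 2. All multi-exon incomplete splice matches, without the minimum of 5 reads, made up 12.1% and 9.65%, and 16561 of 23358 models in replicate 1 and 14103 of 20302 in replicate 2 rested on 1 read. Reads are not independent molecules after amplification, so all intervals given here cover counting error only.

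Most short forms were found in both libraries. Of the 2204 members, 2042 (92.6%) had reads in both and 1037 had at least 5 in both. Of the incomplete splice matches with at least 5 reads in replicate 1, 93.8% (92.5 to 94.9) had a read in replicate 2, and in the reverse direction the value was 96.1% (95.1 to 97.0). The same values were 99.2% and 98.2% for Known chains, 97.8% and 94.7% for new combinations of annotated splice sites, and 94.9% and 92.6% for chains with a new splice site, classes that differ in depth per chain. Just outside the read minimum, 920 chains had 4 reads in the deeper library and 684 of them (74.3%) appeared in both. Just inside it, 523 chains had 5 reads and 438 (83.7%) appeared in both. Over the 2204 members, Pearson's r of log2 CPM between the libraries was 0.46 and Spearman's rho 0.40, across chains that share their library and were chosen by a read minimum.

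**Figure D1:**
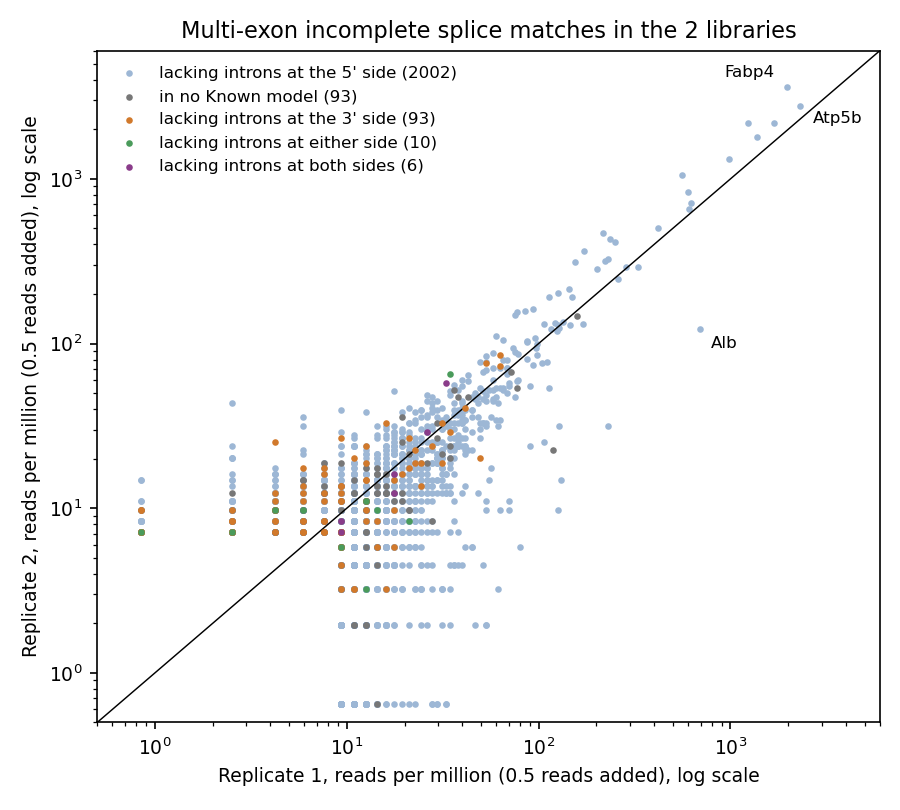
CPM of each of the 2204 members in replicate 1 (horizontal) and replicate 2 (vertical), both on log scales after adding 0.5 reads, colored by class; the line marks equal values. Fabp4 and Atp5b lie at the top right in both libraries and Alb, at 693 and 122 CPM without the added reads, lies far under the line, while members with few reads scatter widely.

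The most abundant members came from genes of lipid binding, oxidative phosphorylation and steroid synthesis. The Fabp4 chain with 1 intron had 1165 reads in replicate 1 and 2773 in replicate 2, which is 62.1% and 62.9% of the gene's spliced reads. It lacked 2 of the 3 introns of the most abundant Known model and averaged 2778 ± 1151 CPM (SD, n = 2). The libraries lay close together in the share of the gene and far apart in the level.

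The Atp5b chain with 1 intron had 1372 and 2141 reads, 35.3% and 38.5% of the gene's spliced reads, and lacked 8 of 9 introns of the main form, the most abundant Known model that holds the chain. Its first base coincided with the annotated start of another Atp5b model, and the Known models of the gene kept 2270 and 3184 reads. The Ndufa4 chain, with 734 and 1677 reads, made up 49.0% and 54.0%. The Ndufs7 chain, from the gene of an iron-sulfur subunit of complex I, had 368 and 552 reads and lacked 6 of 7 introns. In each of these 3 genes the share on the short form in replicate 2 was within 10 points of that in replicate 1.

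How many introns were missing depended on the reference model. Against the nearest Known model, the one with the fewest extra introns, members of the 5' class lacked a median of 3 introns and 641 of 2002 lacked 1. Against the main form the median was 4 and 509 lacked 1, while 409 lacked over 10. They kept a median of 4 introns, 361 kept only 1, and their median length was 1422 bases beside 2377 for their main forms. The members lacking most introns with at least 5 reads in both libraries were collagen chains: a Col3a1 form with 16 and 5 reads kept 1 of 50 introns, a Col1a1 form with 7 and 6 reads kept 1 of 50, and a Col4a1 form with 12 and 10 reads kept 3 of 51.

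**Figure D2:**
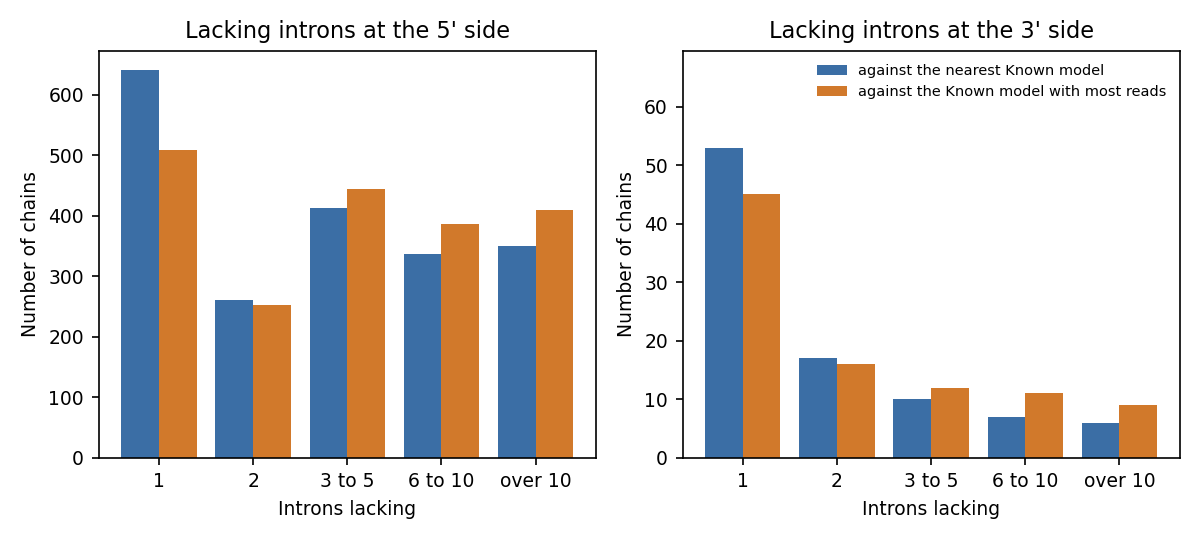
Number of members lacking introns at the 5' side (left, 2002) and at the 3' side (right, 93) by how many introns they lacked, against the nearest Known model (blue) and against the Known model with most reads that holds the chain (orange). At the 5' side 350 members lacked over 10 introns against the nearest model, and at the 3' side 53 of 93 lacked 1; the vertical scales differ.

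Long collagen and myosin genes carried ladders of nested short forms. Col3a1, a fibrillar collagen, had 32 members that kept between 1 and 49 introns and all occurred in both libraries, with 6 to 29 reads each. They held 261 of 1569 spliced reads in replicate 1 and 151 of 1369 in replicate 2. Col4a1, a basement membrane collagen, had 27 members with 236 of 467 and 192 of 394 spliced reads, or 50.5% and 48.7%. Col1a1, the other fibrillar chain, had 26 members with 28.0% and 27.7%. No member of these collagens reached 50 reads: the most read had 29, 42 and 25 over both libraries. Myh1, a fast skeletal muscle myosin, had 21 members, of which 9 occurred in both libraries, with 200 of 501 spliced reads in replicate 1 and 15 of 46 in replicate 2. Cyp21a1, the steroid 21-hydroxylase of the cortex, had 17 members, 8 of the 5' class, with 13.4% and 11.4% of its spliced reads.

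**Figure D3:**
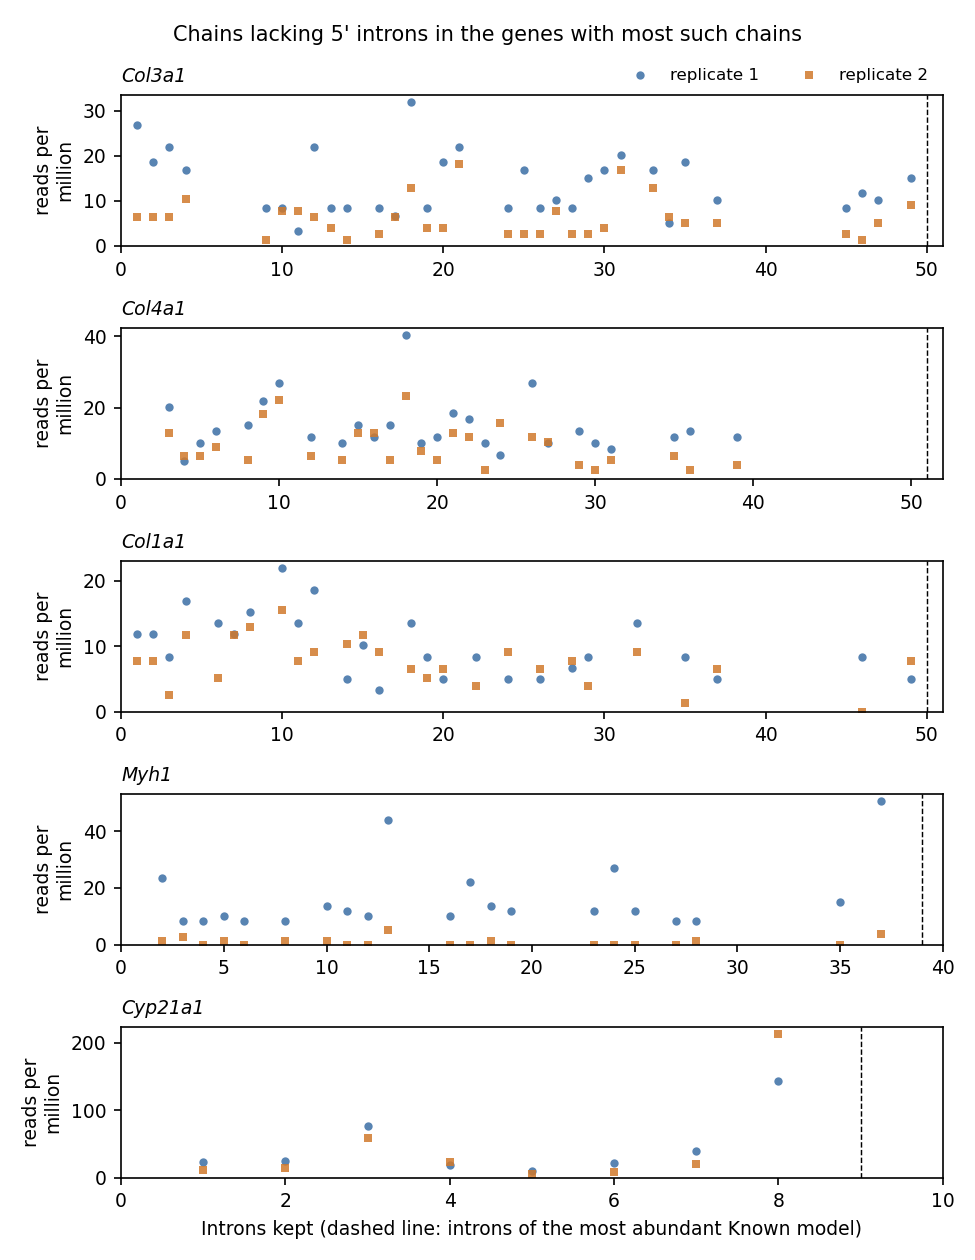
CPM (vertical, from 0) of each member of the 5' class against the number of introns it keeps, in the 5 genes with most members; circles are replicate 1, squares replicate 2, and the dashed line marks the introns of the most abundant Known model. Points of Col3a1, Col4a1 and Col1a1 are spread along the gene from few to many introns. The Cyp21a1 form with 8 of 9 introns stands above the other 5'-class members of its gene in both libraries. Known models, which are not plotted, had 1737 and 2807 reads in Cyp21a1.

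Across all genes the share of spliced reads on 5'-lacking chains was highest where the main Known model had 5000 bases or more. Counting all such chains without a read minimum, the share was 8.10% in replicate 1 and 7.79% in replicate 2 for genes with a main Known model under 1000 bases, and 21.8% and 14.4% at 5000 bases or more. In between, replicate 1 gave 9.43%, 9.80% and 12.3% from bin to bin, whereas replicate 2 gave 8.38%, 7.51% and 8.36% with no steady order. The median gene with at least 20 spliced reads in each library went from 2.38% and 1.39% in the shortest bin to 11.1% and 7.18% in the longest. This is a description across genes, which share library and depth.

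**Figure D4:**
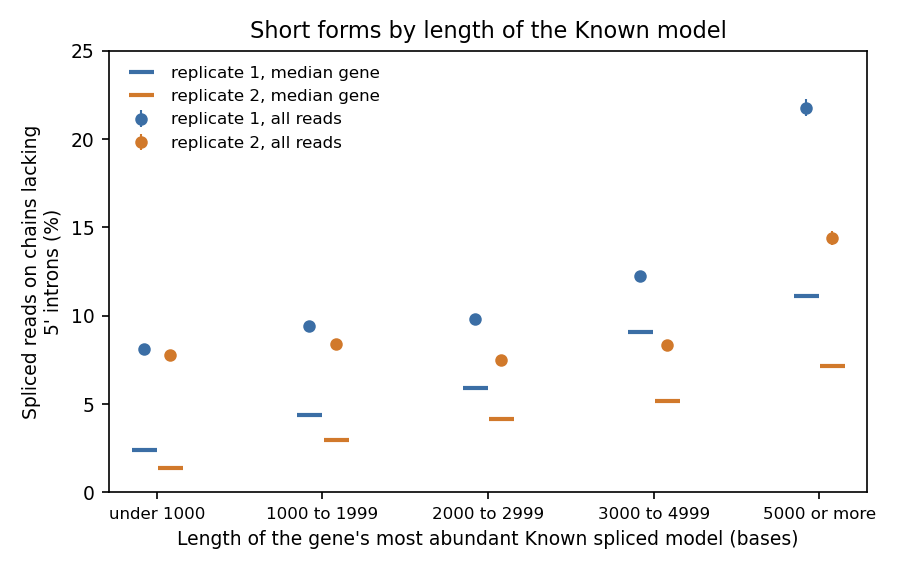
Percentage of spliced reads on chains lacking 5' introns (vertical) by the length of the gene's most abundant Known spliced model in bases (horizontal); dots are all reads of the bin with exact 95% binomial intervals, which are mostly narrower than the dots, and dashes the median gene with at least 20 spliced reads in each library. Medians rise from bin to bin in both libraries, and replicate 1 lies above replicate 2 in every bin.

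Where the short forms ended could be read only in part. In the 5' class the 5' end lay exactly on an annotated exon edge of the gene for 1772 of 2002 members (88.5%). Whether these positions are those where the reads ended was not tested, since read ends were not analysed here. The 5' end lay within 50 bases of an annotated transcript start for 570 members (28.5%, 26.5 to 30.5), 502 of them at starts of models that GENCODE does not tag as incomplete. The 3' end lay within 50 bases of an annotated end for 1772 (88.5%). Among the 1852 members of the 5' class with incomplete splice match models in both libraries, 1415 (76.4%) had the same 5' base. Of the 216 whose 5' end lay off an exon edge, 124 were within 50 bases between the libraries.

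Some members lacked an intron because they ran through it. In 266 members of the 5' class (13.3%, 2924 and 3534 reads) the first exon covered the whole adjacent intron of a Known model, and 224 of these began near an annotated start. That left 1390 members (69.4%) that neither spanned the intron nor began near an annotated start. The Cyp21a1 form with 8 introns covered the first intron, with 85 and 165 reads among 2257 and 3514 spliced reads of the gene. Its 5' end coincided with an annotated start, and start and stop codons were retained. Forms of this kind also included Fcf1 (74 and 157 reads), a factor of ribosomal RNA processing, Eif4g2 (86 and 100), a translation initiation factor, H2-Ke6 (72 and 103), whose introns a second annotated gene also holds, and an Hsd3b1 form with 2 introns (169 and 224).

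Members lacking 3' introns had read-through last exons in many cases. Of the 93, 63 (67.7%) ended within 50 bases of an annotated transcript end, and in 50 (53.8%) the last exon ran through the whole missing intron. Kank3 (24 and 31 reads), Srsf2 (20 and 22), a splicing regulator of the SR family, and Mbd3 (16 and 18), a methyl-CpG-binding domain protein, were of this kind, lacked 1 intron each and kept start and stop codons. A chain of AC149090.1, on the unplaced sequence JH584304, had 37 and 56 reads. A different kind was Son, the gene of a nuclear speckle protein, whose chain kept the first 2 of 11 introns with 37 and 65 reads and 333 of 7332 coding bases. Sec62, of the protein translocation channel, had a form with 31 and 58 reads that kept 3 of 7 introns and lost the stop codon, and Psmd1, a proteasome subunit, a form with 29 and 15 reads that kept 21 of 24. Over the class, 45 of 86 members with a coding model kept both codons and 40 lost the stop codon.

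The few members lacking introns at both sides kept introns from the inside of their gene. The most read, of Sptb, the erythroid beta spectrin, had 19 and 44 reads and kept 16 of 35 introns. The others came from Hnrnpa2b1 (15 and 22 reads), Hsp90ab1 (10 and 12), Trdn (10 and 9) and Star (5 and 6), and AC149090.1 (5 and 5). Of the 10 members that could be placed at either side, Pop5 had most reads with 20 and 50. All 6 members lacking introns at both sides had at least 5 reads in both libraries.

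Members contained in no Known model included chains of the medulla and of muscle. In 84 of these 93 the gene was annotated and in 9 it was not. The chain of Cyb561, the cytochrome that carries electrons across the chromaffin granule membrane, had 93 and 113 reads, 60.4% and 53.6% of the gene's spliced reads. Agpat3, of phospholipid synthesis, had a chain with 42 and 51 reads, Aars, the enzyme that charges tRNA with alanine, 45 and 41, and Dus1l, a tRNA-modifying enzyme, 21 and 40. The chain of Atp2a1, the calcium pump of fast muscle, had 70 and 17. In 52 members the same intron chain carried another class label in 1 of the libraries, most often a new combination of annotated splice sites (30) or a chain with a new splice site (15). A further 26 members (364 and 520 reads) had introns that Known models of another gene hold as well, so that their gene is uncertain.

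Most members of the 5' class could not carry the annotated start codon. For 1978 of them a coding Known model with start and stop codons held the chain. The start codon was lost and the stop codon kept in 1657 (83.8%), with 22038 of their reads in replicate 1 and 28326 in replicate 2, and both were kept in 309 (15.6%), with 5359 and 7318 reads. Members that lost the start kept a median of 53.1% of the coding bases. An in-frame ATG remained in 1579 of the 1657 (95.3%), and in 694 it left at least 50 percent of the codons. Of the members lacking 1 intron against the main form, 265 of 498 (53.2%) kept the start codon, beside 44 of 1480 (2.97%) of those lacking more. These are properties of the models, and no protein was measured.

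A dominant short form was defined as members holding at least 50 percent of a gene's spliced reads in each library, with at least 20 spliced reads in each. It was met by 44 of 4252 genes (1.03%), and no test applies because the rule used these reads. The most read member was of the 5' class in 39 of them, started within 50 bases of an annotated start in 23, kept the start codon in 21 and lost it in 20, with no coding model for 3. In 13 of the 44 genes no spliced read matched a Known model in either library. Just inside the threshold lay Tnks1bp1, with 14 of 28 and 13 of 26 spliced reads, and just outside it Col4a1, at 48.7% in replicate 2.

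Among dominant forms that kept the whole coding sequence, Hsd3b1 led. Hsd3b1 encodes the 3-beta-hydroxysteroid dehydrogenase that converts pregnenolone to progesterone. Members held 1184 of 1213 spliced reads in replicate 1 (97.6%) and 1924 of 1951 in replicate 2 (98.6%). Known models of the gene had 4 and 2 spliced reads. The most read chain, with 1004 and 1688 reads, lacked the first intron of a 4-intron model and began on the exon edge, 1453 bases from the nearest annotated start. Ndufa13, a complex I subunit, had 361 of 371 and 654 of 665 spliced reads on members (97.3% and 98.3%) and 0 on Known models. Its chain of 3 introns kept all 432 coding bases. Hsd3b1 belongs to a family of similar genes, and reads may be split between the copies.

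Subunits of ATP synthase followed. Atp5f1, of the peripheral stalk, had 416 of 425 and 551 of 569 spliced reads on members (97.9% and 96.8%). The main chain, with 362 and 505 reads, began at an annotated start of the gene and lacked 1 intron of the main form, which had 0 reads. Atp5j, coupling factor 6 of the same stalk, had 68.8% and 64.0%, and its main chain of 195 and 225 reads also began at an annotated start. Both chains kept start and stop codons. Serpinc1, which encodes the plasma protein antithrombin made by liver, had 152 of 157 and 26 of 27 spliced reads on members, with no Known spliced read, and like the liver marker Alb it had fewer reads in replicate 2. Tspan12, a tetraspanin, had 77.5% and 78.8% on 1 chain that kept the coding sequence.

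Among dominant forms that lost the start codon, Fabp4 led by reads. Members held 1506 of 1877 and 3597 of 4412 spliced reads of Fabp4 (80.2% and 81.5%). Ssbp1, the mitochondrial single-stranded DNA-binding protein, had 137 of 197 and 261 of 358 (69.5% and 72.9%), nearly all on a chain that kept 1 intron and 130 of 444 coding bases. Cd36, the fatty acid translocase, had 158 of 245 and 201 of 325 (64.5% and 61.8%), mostly on a chain that lacked 13 introns and kept 162 of 1416 coding bases. Pink1, a mitochondrial kinase, had 65.5% and 55.1%, and its interval in replicate 2 (48.0 to 62.0) reached under the threshold. In Fcf1, with 74 of 100 and 157 of 220, the form kept 591 of 594 coding bases. It reached 234 bases into the 249-base first intron of the main form, and covered the adjacent intron of another Known model. In Ctsa, which encodes the lysosomal protease cathepsin A, a form lacking 1 intron kept 1466 of 1476. The chains of Cyb561, described above, and of Pde2a, a cyclic nucleotide phosphodiesterase (87.3% and 88.5%), were also among the dominant genes with most reads. The Pde2a chain shares its introns with another annotated gene, as do the leading chains of 2 other dominant genes, Gm20390 with Nme2 and Gm45713 with Rpl13a, named here after their values were seen.

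**Figure D5:**
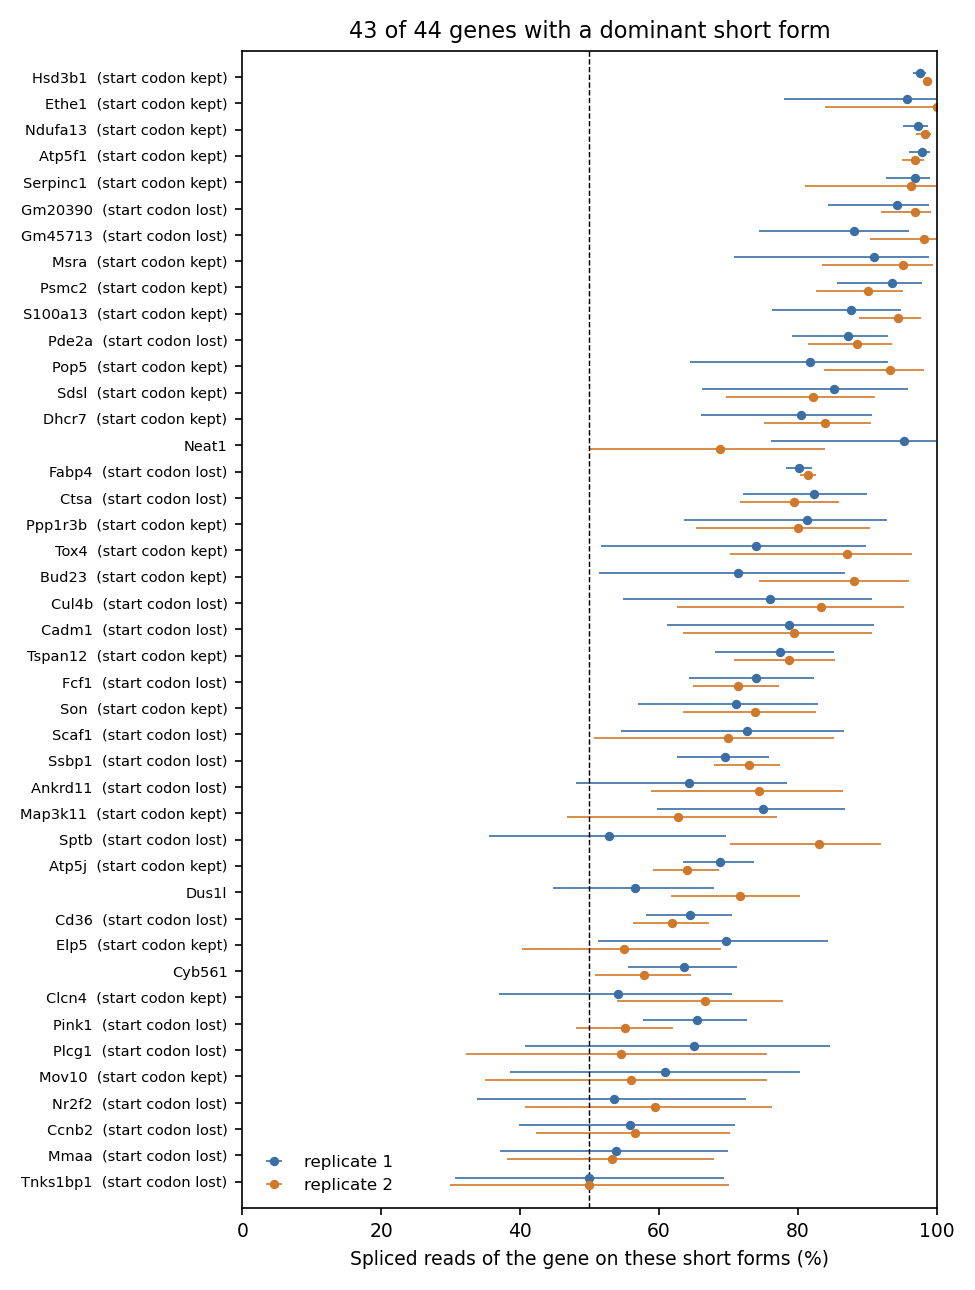
Percentage of each gene's spliced reads on members (horizontal) in replicate 1 (blue) and replicate 2 (orange) for 43 of the 44 genes with a dominant short form, with exact 95% binomial intervals for counting error; the dashed line marks 50%. Labels say whether the most read member keeps the start codon, and 3 genes without a coding model have none; Hsd3b1, Ndufa13 and Atp5f1 lie above 96% in both libraries.

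Of 41 dominant genes with a main form to compare, 24 lacked exactly 1 intron at the 5' side and 17 lacked more. In 12 of the 24 the main form had 0 reads in both libraries. In 18 of the 24 the chain began within 50 bases of an annotated start of the gene, the start of the main form included. In S100a13 the chain began at the start of the main form and ran through its first intron of 292 bases. Over the 24, the first exon of the main form measured between 31 bases, in S100a13, and 1329 bases. It had 123 bases for Hsd3b1, 678 for Ndufa13, 174 for Atp5f1, 205 for Atp5j, 110 for Tspan12, 70 for Serpinc1, 69 for Fcf1, 296 for Ctsa and 150 for Pde2a.

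Lists of genes for adrenal and neighbouring tissues, chosen with earlier results of these data known, showed where members weighed most. In genes of steroid synthesis and cholesterol delivery, 13 of 25 had members, which held 23.8% and 24.1% of the list's spliced reads, beside 6.23% and 5.93% over all annotated genes. Hsd3b1 supplied 1184 of the 2063 member reads of replicate 1. The median gene of the list, among those with at least 20 spliced reads, had 4.73% and 4.43%, beside 0% over all genes. Because a member needs at least 5 reads in a library, a gene with few reads can have 0% for that reason. Of the 4252 genes with at least 20 spliced reads in each library, 1026 had a member. Neither this list nor those below were matched to all genes for depth, and its part in these differences was not tested. Cyp11a1 had a chain with 140 and 334 reads, and Akr1c18, a 20-alpha-hydroxysteroid dehydrogenase that breaks down progesterone, a chain with 102 and 280 reads, 41.8% and 40.6% of its spliced reads. Akr1c18 is one of a family of similar genes, so reads may be split between copies.

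In genes of catecholamine synthesis and chromaffin granules, 10 of 26 had members, with 15.4% and 13.4% of spliced reads and a median of 1.91% and 1.43%. Chgb had a chain with 248 and 387 reads that kept 1 of 4 introns, 23.4% and 25.9% of the gene. For Chga, chromogranin A, chains were found with 58 and 65 and with 37 and 26 reads, and Npy, the gene of neuropeptide Y, a chain of 37 and 54 reads that kept the coding sequence. In genes of brown fat and lipid storage, 19 of 24 had members, with 18.1% and 22.1% of spliced reads. Fabp4 supplied 1506 of the 2700 member reads of replicate 1 and 3597 of the 5116 of replicate 2, and the median gene had 11.1% and 7.31%. The other genes included Acadm, of fatty acid oxidation (128 and 363 reads), Acadl of the same pathway (67 and 147) and the uncoupling protein Ucp1 (88 and 148, 7.03% and 6.45% of its spliced reads). The first exon of the Acadm chain held only a few bases, between its start at position 153925667 and its intron edge at 153925664. That start lay off any annotated exon edge.

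In genes of mitochondrial ATP synthesis and the citric acid cycle, 22 of 25 had members, with 12.8% and 10.8% and a median of 4.51% and 3.16%. The Atp5b chain with 1 intron supplied 1372 of 2861 and 2141 of 3559 member reads. Next to Atp5b, the chains of Cox4i1 (56 and 83 reads) and Atp5a1 (40 and 54) had at most 2.42% of their gene in either library. Translation genes had members in 14 of 19, with 16.3% and 9.91% and a median of 9.43% and 4.46%, including Eif4g2 and Eef1a1. Striated muscle genes had members in 16 of 20, with 10.4% and 6.95% and a median of 8.67% and 5.21%, and liver plasma protein genes in 13 of the 14 found, with 10.1% and 6.59% and a median of 5.22% and 2.04%. Alb supplied 806 and 146 member reads.

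The share of incomplete splice matches per gene was compared between the libraries with Fisher's exact test, two-sided, over 1858 genes with at least 50 spliced reads in each. The labels give no condition to compare, so the test contrasts the reads of these 2 libraries only. The call rule, an adjusted p (Benjamini-Hochberg) under 0.05 and a difference of at least 10 points, was met by 14 genes, 0.753% of those tested. Of these, 13 (0.7% of those tested) were higher in replicate 1. Of the 708 tested genes with a member, 12 were called. Over all tested genes 1260 had a higher share in replicate 1 and 478 in replicate 2, with a median difference of -1.50 points (replicate 2 minus replicate 1). Genes with a member had a median of -1.95.

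For the 3 genes with the largest differences, most of the difference lay in the labels. Cyb561 had 103 of 154 spliced reads labelled incomplete splice match in replicate 1 and 10 of 211 in replicate 2 (66.9% and 4.74%, adjusted p = 2.7e-36, Fisher's exact test). When all reads on chains so labelled in either library were counted, the values were 66.9% and 58.3% (adjusted p = 0.583, exact test). For Aars the 2 libraries had 67.1% and 16.2% by label and 67.1% and 53.2% by chain, and for Agpat3 42.9% and 10.4% by label and 42.9% and 41.5% by chain. Counted by chain, a choice made once the data had been seen, 6 genes were called, all of them among the 14.

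By either count Ogdh, of the citric acid cycle, had 118 of 224 and 102 of 297 such reads (52.7% and 34.3%, adjusted p = 0.00498 by label, exact test). Pck1, the gene of a key enzyme of gluconeogenesis, had 34.8% and 19.2%, Eef1a1, an elongation factor, 37.9% and 23.2%, and Txnip, a thioredoxin-binding protein, 35.2% and 12.6%. Nisch (42.9% and 20.6%), Uba1, the ubiquitin-activating enzyme (32.3% and 14.8%), and Des, the muscle intermediate filament protein (6.61% and 22.1%), were called by label only. Nisch and Des had the same reads by either count. Their adjusted p was 0.0434 and 0.0459 by label and 0.0539 and 0.0557 by chain (Fisher's exact test). Uba1 had 22 reads in replicate 2 by label and 23 by chain, with an adjusted p of 0.0676 by chain (Fisher's exact test). Des was the gene called higher in replicate 2, where it had 68 spliced reads beside 227.

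Reads per chain were compared with an exact binomial test, two-sided, against the share of library totals, over 10875 spliced chains of every class with at least 10 reads summed. Of these, 350 (3.22%) were called at an adjusted p under 0.05 and at least 2-fold, 249 (2.29%) higher in replicate 1 and 101 (0.929%) higher in replicate 2. Of the 2204 members, 1412 had enough reads and 83 (5.88%) were called, 69 higher in replicate 1 and 14 in replicate 2. The read minimum of the members used the same counts, so this share is a description. In 60 of the 83 the gene's spliced reads differed at least 2-fold in the same direction, and in 23 by less than 2-fold.

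The 83 called members lay in 52 genes. Of the 13 Alb members 12 were called, of the 13 members of Trf, the gene of the iron carrier transferrin, 9, of the 5 Acta1 members 5, and of the 21 Myh1 members 5, all higher in replicate 1. A chain of Myh4, another fast muscle myosin, was called higher in replicate 2, with 1 and 18 reads. Trf and Myh4 are named here after their values were seen. The Alb chain with 7 introns had 411 and 94 reads, a log2 ratio of replicate 2 to replicate 1 of -2.50 (adjusted p = 1.6e-65, exact binomial test) beside -2.89 for all spliced reads of Alb. The Acadm chain went the other way, with a log2 ratio of 1.12 (adjusted p = 2.2e-13, exact binomial test) beside 0.39 for the gene. As given above, the first exon of this chain held only a few bases. The Akr1c18 chain had 1.07 beside 1.12 for the gene, and the Hnrnpa2b1 chain of 1 intron, chosen after its value was seen, had 91 and 242 reads, 1.03 beside 0.62.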

How the data were processed

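Members and gene lists were chosen with earlier results of these data known. The authors deposited, for each library, whole read counts per transcript model and the exon positions, exon numbers and lengths of the models (other values, in bases), from TALON on mm10 with GENCODE M21, per the file headers and notes. For aligner, versions and settings the sources used here give nothing. Each file lists only models with at least 1 read, from 606677 and 788654 reads.

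Intron chains were built from the deposited exons. Spike-in sequences were left out of totals. The 141862 Known models were identical in both libraries and in the GENCODE file, so codons and sequences were taken from it. Start and stop codons were read against the most abundant coding Known model that holds the chain; this and the main form were added after the data were seen. Fisher's exact test and the exact binomial test (scipy 1.17.1, Python 3.11.15) were adjusted by Benjamini-Hochberg over all genes or chains, and checked on simulated data; a pseudocount of 0.5 reads entered fold changes. edgeR 4.0.16 supplied TMM sizes for an alternative only. Intervals are exact (Clopper-Pearson) at 95%. With 2 libraries of 1 group, p-values compare libraries.

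Named genes were the 10 members with most reads and the 5 with most in each class, the 15 dominant genes with most member reads, the 10 genes with the largest called share difference, up to 5 members with at least 20 reads per gene list, the 5 lacking most introns with at least 5 reads in both libraries, the 5 on each side reaching over 50 bases into an intron, and the 5 genes with most members. Other minimums, references, denominators, scalings and distances were tried, and each library was left out in turn. Members of 2 genes that the rule names are not reported here.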

Additional observations from a re-analysis of the deposited data

How the results depend on the processing

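The number of members was 4935 at a minimum of 3 reads, 835 at 10 and 1003 with at least 5 labelled reads in both libraries, and 1576 to 1631 with either library left out. The share lacking introns at the 5' side only was 86.0% against Known models with a read, 94.3% weighted by reads, and 89.3% to 93.9% with either library left out. Members held 10.7% of spliced reads with no minimum, 5.28% of all reads of annotated genes, and 5.93% to 6.23% by library. The share found in both libraries was 98.6% at a minimum of 10 reads, 47.1% when at least 5 reads were asked in both and 96.1% from replicate 2 alone. Genes with a dominant short form numbered 21 at 75%, 101 when the top member was set against the top Known model, 19 at 50 spliced reads, and 56 to 64 with either library left out. Genes with a called share difference numbered 8 at 20 reads, 9 at 100, 34 with no minimum difference and 6 by chain. The count by chain includes reads whose label differed between libraries. Nisch and Des, however, had the same reads by label and by chain, and only their adjusted p passed 0.05 (Fisher's exact test). The cause of these changes was otherwise not tested. Ends lay close in both libraries for 74.8% of recurrent members within 50 bases, 72.5% within 20 and 77.7% within 100. The 83 members called by reads became 56 to 103 under 5 alternatives. No paired analysis was possible because the 2 libraries form 1 group. Depth limits low counts: 3 reads correspond to 5.06 and 3.89 CPM.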

Other observations

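RefSeq lists a start for the gene of 1569 of the 2002 members lacking 5' introns. Of these, 89 (5.67%) began within 50 bases of it, and 87 of the 89 also lay within 50 bases of a GENCODE start. The other 2 were chains of Ece1, which encodes an endothelin-converting enzyme, with 9 and 10 reads, and of Slc22a8, an organic anion transporter of kidney, with 1 and 11 reads.

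For the 509 members lacking 1 intron against the main form, the first exon of the main form had a median of 174 bases. Its first intron had a median of 1303 bases. Members that ran through this intron were not left out. Over 7223 genes with at least 10 reads on their most abundant Known model, the medians were 222 and 2924 bases. First exons under 50 bases made up 6.09% of the former and 2.02% of the latter. The sets are unlike: the 509 are chains, so that a gene can count more than once, and their main form needed no reads.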
